A study of Mus musculus with 16 samples.

Results

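The ethanol response of livers without Zfp36l1 was taken from 8 libraries, 4 from mice on an ethanol-containing diet and 4 from mice on a control diet, all with Zfp36l1 deleted in the liver (LKO). They are 8 of the 16 libraries of a mouse study in which the other 8 came from wild-type (WT) livers on the same diets, 4 on each. Libraries were placed in groups by their treatment label and are named by diet and a replicate number from 1 to 4, which follows the order of the records and pairs nothing. The deposited table lists 35275 gene IDs with an FPKM value, a read level corrected for gene length and library size. The 11298 genes that reached 1 FPKM in 4 or more of all 16 libraries were kept and compared between the diets. Both LKO groups carry the same liver deletion, so the deletion itself is not part of the comparison. The promoter that drove the recombination, the strain, sex, age, the length of feeding and the time of collection were not given in the sources used here. Nothing in the labels says whether the 4 libraries of a group came from separate animals, so p-values measure the spread between these libraries only.

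Ethanol is oxidized in hepatocytes by alcohol dehydrogenases, by the cytochrome P450 CYP2E1 and by aldehyde dehydrogenases. Chronic intake is known for fat storage in hepatocytes, oxidative stress and inflammation. ZFP36L1 is an RNA-binding protein that binds AU-rich elements in messenger RNAs and promotes their decay, and the study's title names the transcript of the hormone Fgf21 as one whose turnover it controls. The comparison asks which transcripts the diet moved in livers that lack this protein.

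Total reads, worked out from the steps of the FPKM values, lay between 21093141 and 24768569 in the 8 LKO libraries. Zfp36l1 measured 0.572 to 1.76 FPKM (36 to 130 reads) in the 8 LKO libraries and 9.30 to 25.5 in the WT libraries, as the labels require. All 8 hepatocyte markers examined passed the filter, with a summed level of 76714 to 90528 FPKM on the control diet and 71870 to 86646 on ethanol. Once the diet means were removed, the main axis of variation held 43.7% of the variance left among the 8 LKO libraries and split them into 2 sides: replicates 1 and 2 of each diet lay on one side and replicates 3 and 4 on the other. The labels name no batch for this. Changes within each side are given for each called gene described below whose sides differ by over 1 on the log2 scale, and for some others. WT ethanol replicate 2 stood apart from all other libraries, with 9890475 reads and 22.5% of them from the mitochondrial genome. It also held Y-linked transcripts (Ddx3y 1.43 FPKM, Uty 0.427), which reached at most 4 reads per gene in any LKO library. Xist, the X-inactivation RNA of female cells, measured 6.62 FPKM in WT ethanol replicate 2 and 13.7 to 49.4 FPKM in the LKO libraries. This library enters the LKO comparison through the spread that the 4 groups share in the fit and through the filter on low values. The median standard error of a log2 change was 0.296 with it, 0.207 without it and 0.196 when only the 8 LKO libraries were fitted.

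Ethanol changed 48 of the 11298 genes at an adjusted p under 0.05 (limma on log2(FPKM + 1) over all 16 libraries, Benjamini-Hochberg), which is 0.425% of the genes tested. Of these, 19 rose (0.168%) and 29 fell (0.257%). The largest rise was that of Cyp2b10, a drug-metabolizing cytochrome P450, and the largest fall that of Hamp, which encodes the iron hormone hepcidin. All 48 changed at least 2-fold in mean FPKM, and 47 had groups that did not overlap. Over all genes, 921 (8.15%) had every ethanol library above every control library and 468 (4.14%) every ethanol library below. With only the 8 LKO libraries in the fit, 134 genes rose (1.19%) and 114 fell (1.01%), and these 248 included all 48. Without WT ethanol replicate 2, 409 genes were called, again including the 48. At an unadjusted p under 0.05, 635 genes were higher (5.62%) and 403 lower (3.57%), and the median change of all genes was 0.06 on the log2 scale. These shares are the background for the list counts below. With a median so near 0, changes of both signs were common over all genes, so counts of signs only describe a list. Of the 48 genes, 5 are predicted, non-coding or pseudogenes, among them the antisense RNA Gm11695 and the non-coding RNA 1810008I18Rik, and the other 43 are the genes described in what follows. Differences given are log2 changes of FPKM + 1, ethanol minus control, with their standard error (SE), and a value with ± is the mean and SD of 4 libraries in FPKM. Adding 1 to each value makes the changes of weakly expressed genes smaller than their fold in mean FPKM. Unless another test is named, an adjusted p is the limma value over 16 libraries.

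**Figure D1:**
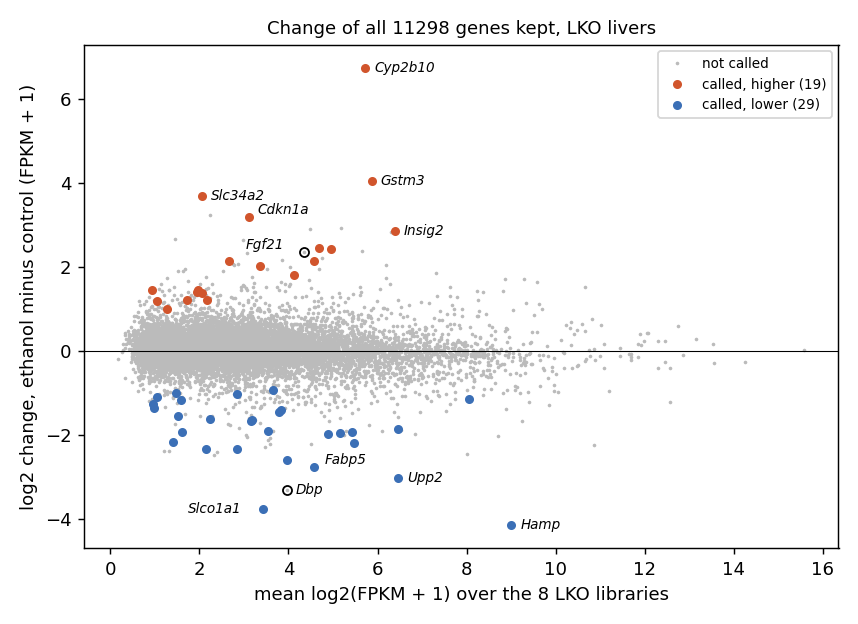
Log2 change between diets (vertical axis, FPKM + 1) against the mean log2(FPKM + 1) over the 8 LKO libraries (horizontal axis) for each of the 11298 genes; the 19 genes called higher are orange, the 29 called lower blue and all others grey, with black rings around labelled genes that were not called. Cyp2b10 lies highest at 6.75 and Hamp lowest at −4.16, while Fgf21 (2.36) and Dbp (−3.31) have large changes without a call.

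Foreign-compound metabolism held the largest rise. Cyp2b10 (ENSMUSG00000030483, protein-coding, GRCm38 chromosome 7, 25897620 to 25926624, plus strand) is the classical transcript induced through the nuclear receptor CAR. It measured 5.41, 5.75, 2.77 and 3.14 FPKM on the control diet and 378, 732, 780 and 414 on ethanol. The lowest ethanol library thus lay far above the highest control library, and the mean rose 135-fold, from 4.27 ± 1.53 to 576 ± 209 (n = 4 each). The log2 change was 6.75 (SE 0.423, limma adjusted p = 1.32e-07), with 6.32 on the side of replicates 1 and 2 and 7.17 on the other. Reads shared with near-identical members of the Cyp2b cluster could be assigned to either copy.

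Other genes regulated through CAR and its relative PXR lay mostly above control without passing the test over 16 libraries. Of 39 listed genes kept, 1 was called higher and none lower, 8 were higher at an unadjusted p under 0.05 and 1 was lower, and the median change was 0.60. Cyp2c29, a steroid and drug hydroxylase, had 428, 386, 350 and 244 FPKM on control and 845, 805, 1586 and 1526 on ethanol, with groups apart and a change of 1.71, 1.02 and 2.41 in the sides (adjusted p = 0.165, and 0.0157 in the fit of the 8 LKO libraries). The transporter gene Abcc4 changed by 1.33 (adjusted p = 0.245) from 0.270 to 0.575 FPKM on control to 1.2 to 5.84 on ethanol, and the stress gene Gadd45b by 1.48 (adjusted p = 0.315). In LKO livers Abcc4 reached 1 FPKM, the level of the filter, only on ethanol. Nr1i2, which encodes PXR itself, was lower in every ethanol library (39.5 to 53.4 FPKM on control, 23.3 to 37.7 on ethanol) with a change of −0.61 (adjusted p = 0.413). In the fit of the 8 LKO libraries 3 listed genes rose, Cyp2b10, Cyp2c29 and, named after its values were seen, Cyp3a11, the main PXR-regulated P450, at 128 to 233 FPKM on control and 426 to 636 on ethanol (change 1.43, adjusted p = 0.0140 in that fit and 0.420 over 16 libraries).

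Genes that join glutathione to reactive compounds, and others of the oxidant response governed by the factor NRF2, included 4 called rises and no called fall among 44 listed genes kept. At an unadjusted p under 0.05, 16 were higher and 1 lower (5.62% and 3.57% of all genes), and the median change of the list was 0.72. Gstm3, a mu-class glutathione S-transferase (GRCm38 chromosome 3, 107963696 to 107969283, minus strand), measured 15.3, 8.94, 10.1 and 23.0 FPKM on control and 55.0, 416, 468 and 285 on ethanol. Its lowest ethanol library was replicate 1, still above every control library, and the change was 4.04 (SE 0.613, adjusted p = 0.00749). The alpha-class Gsta2 had 18.4, 8.46, 8.32 and 7.35 FPKM on control and 36.8, 143, 47.7 and 47.8 on ethanol, with the highest value in ethanol replicate 2. It rose by 2.46 (SE 0.474, adjusted p = 0.0323). The theta-class Gstt3 was nearly level across control livers, at 13.4, 12.5, 12 and 11.4 FPKM, and reached 46.5, 54.1, 118 and 81.3 on ethanol, a rise of 2.42 (SE 0.353, adjusted p = 0.00563). Replicates 3 and 4 were the higher ones, and the change was 1.88 on the side of replicates 1 and 2 and 2.96 on the other.

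Hmox1, which encodes heme oxygenase, the enzyme that breaks down heme, showed the opposite order of the sides. It measured 8.97, 14.1, 10.8 and 8.27 FPKM on control and 88.6, 96.3, 37.6 and 17.8 on ethanol. The groups did not overlap, and the rise of 2.15 (SE 0.399, adjusted p = 0.0283) was 2.93 for replicates 1 and 2 and 1.37 for replicates 3 and 4. Among listed genes that did not pass, Srxn1, which repairs oxidized peroxiredoxins, had 11.1 to 12.9 FPKM on control and 77.5, 618, 59.9 and 33.5 on ethanol (change 2.93, adjusted p = 0.0711). Most of its ethanol mean of 197 ± 281 came from replicate 2. Replicate 2 was also the highest ethanol library for Nqo1, the quinone reductase (3.23 to 5.49 FPKM on control, 10.9, 43.1, 8.69 and 10.7 on ethanol, change 1.52, adjusted p = 0.185). Gsta1 and Gsta2 are close copies, so their values can hold reads of each other. The short antioxidant response element TGACNNNGC stood on either strand of the RefSeq promoter window (300 bases, GRCm38.p6, 250 before to 50 after the start) of 12 of the 39 listed genes with a window (30.8%), compared with 17% of all kept genes with a window and 12.4% of all windows. The list was assembled from known genes of this response, so a high share describes the list. Of the 15 called rises with a window, 3 held the element. The windows of Gstm3, Gsta2 and Gstt3 did not hold it, which says only that the letters are not in those bases.

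The phosphate transporter gene Slc34a2, the growth-arrest gene Cdkn1a and the sterol regulator Insig2 were the next largest rises. Slc34a2 encodes a sodium-dependent phosphate cotransporter (GRCm38 chromosome 5, 53038081 to 53071664, plus strand). It was near 0 on control at 0.168, 0.0797, 0.374 and 0.050 FPKM and measured 20.1, 5.37, 55.6 and 5.76 on ethanol. Replicates 1 and 3 were the high ethanol libraries, all 4 lay above control, and the log2 change was 3.70 (SE 0.506, adjusted p = 0.00505). Slc34a2 passed the filter on low values only through ethanol libraries, as did Dusp8 and Samd4 below, so their calls are descriptions. Cdkn1a encodes p21, an inhibitor of cyclin-dependent kinases that halts the cell cycle. Its values were 3.59, 0.806, 1.79 and 1.86 FPKM on control and 23.0, 48.3, 48.5 and 6.72 on ethanol, a rise of 3.19 (SE 0.631, adjusted p = 0.0330). Ethanol replicate 4 was the low one there, and it was so again for Insig2, whose protein keeps the sterol sensor and SREBP in the endoplasmic reticulum. Insig2 measured 42.4, 27.0, 29.0 and 24.8 FPKM on control and 320, 282, 276 and 101 on ethanol, and rose by 2.85 (SE 0.596, adjusted p = 0.0469).

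The remaining large rises were found in genes of unrelated functions. Bco1, which cleaves beta-carotene to retinal, had 5.0, 3.22, 4.13 and 4.38 FPKM on control and 19.8, 40.9, 26.0 and 6.98 on ethanol (change 2.02, SE 0.40, adjusted p = 0.0330, with 2.55 and 1.48 in the sides). Pla2g12a, a secreted phospholipase, went from 8.75, 12.1, 7.47 and 5.88 to 26.6, 44.6, 36.2 and 22.5 FPKM (change 1.80, SE 0.316, adjusted p = 0.0199). The ethanol libraries of both genes lay above control, narrowly so for Bco1 in replicate 4. Dusp8, a phosphatase of stress-activated MAP kinases, was low throughout, at 0.0915, 0.0779, 0.274 and 0.139 FPKM on control and 2.09, 3.29, 3.48 and 0.664 on ethanol (change 1.46, adjusted p = 0.0469). Trim2, a ubiquitin ligase, was among the most even rises, from 1.14, 1.12, 1.58 and 1.71 to 4.96, 4.72, 6.17 and 5.97 FPKM (change 1.44, SE 0.257, adjusted p = 0.0211). Its changes within the sides were 1.46 and 1.42. Synpo, Slc16a6, Trmt61a, Bcam, Samd4 and Dtx4 rose by 1.41, 1.38, 1.22, 1.21, 1.19 and 0.99, with adjusted p between 0.0199 and 0.0484 and with groups that did not overlap. They encode an actin-associated protein, a monocarboxylate transporter, a transfer RNA methyltransferase subunit, a laminin-binding adhesion molecule, an RNA-binding repressor and a ubiquitin ligase of the Deltex family.

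**Figure D2:**
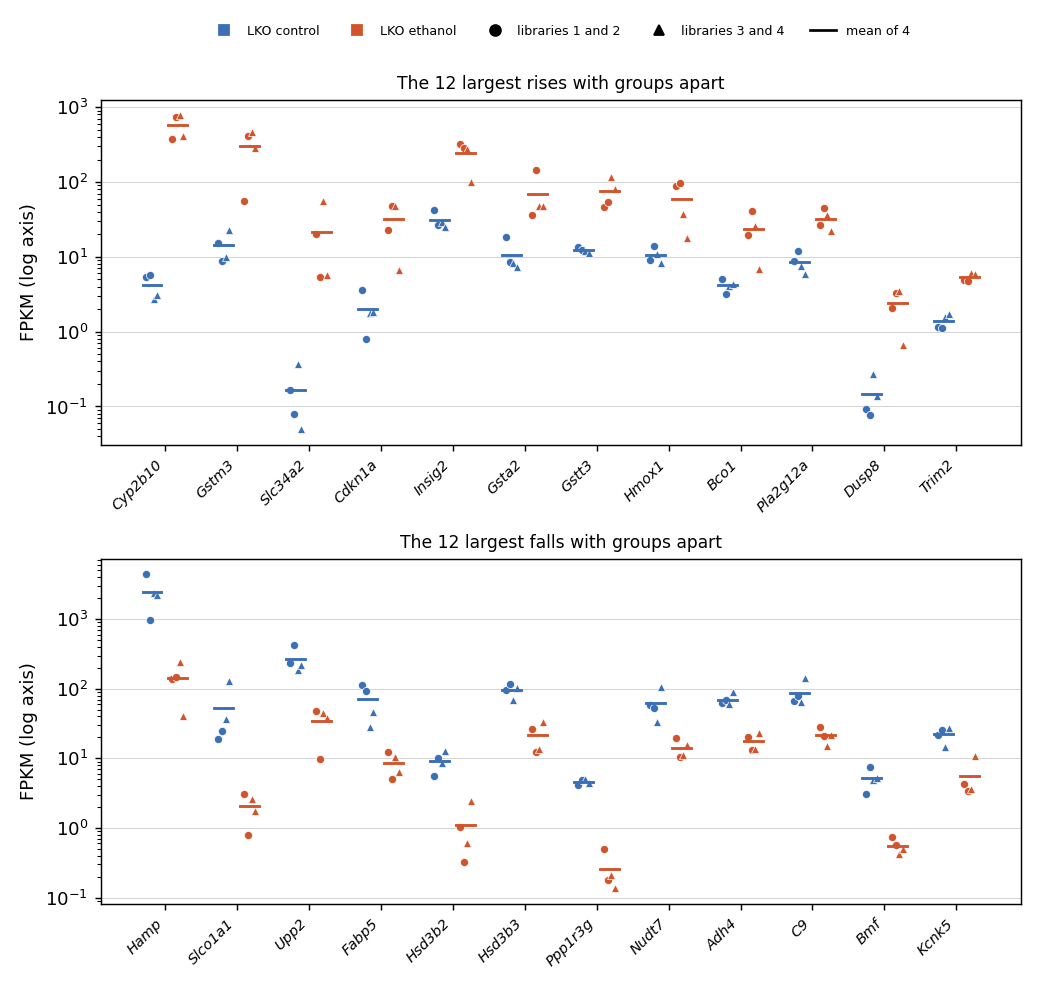
FPKM (log axis) in each of the 4 LKO control (blue) and 4 LKO ethanol (orange) libraries for the 12 largest rises (upper panel) and the 12 largest falls (lower panel) among named genes with groups apart; circles are replicates 1 and 2, triangles replicates 3 and 4, and bars the mean of 4. Hamp lies at 966 to 4389 FPKM on control and at 40.7 to 246 on ethanol, and Cyp2b10 at 2.77 to 5.75 and at 378 to 780.

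Hepcidin is the liver hormone that lowers the export of iron from gut and macrophages, and its gene is known to respond to BMP and SMAD signalling and, through STAT3, to inflammatory cytokines. Mice carry a near-identical copy, Hamp2, on the same chromosome. The stretches from 130 to 51 bases before the RefSeq start of each gene are printed from 5′ to 3′ because the copies differ here (GRCm38.p6, minus strand, Hamp chr7:30944080-30944159 and Hamp2 chr7:30924232-30924311). Capitals mark the BMP-responsive element GGCGCC and the STAT site TTCNNNGAA where a search of both strands found them.
Hamp: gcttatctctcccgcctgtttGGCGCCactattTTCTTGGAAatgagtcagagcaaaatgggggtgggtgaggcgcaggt
Hamp2: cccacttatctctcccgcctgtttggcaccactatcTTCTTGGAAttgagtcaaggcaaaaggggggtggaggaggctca
The STAT site stood in both windows, at −97 in Hamp and −94 in Hamp2, and GGCGCC in that of Hamp alone, at −109. Of the kept genes with a window, 24% held GGCGCC and 8.27% TTCNNNGAA (11.9% and 8.3% of all RefSeq windows), so a match describes the letters and no binding.

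Hamp (ENSMUSG00000050440, protein-coding, GRCm38 chromosome 7, 30942368 to 30944032, minus strand) measured 4389, 966, 2380 and 2202 FPKM on control and 140, 148, 246 and 40.7 on ethanol. Every ethanol library lay below every control library, and the mean fell 17.3-fold, from 2484 ± 1417 to 144 ± 83.9 (n = 4 each). The log2 change was −4.16 (SE 0.605, limma adjusted p = 0.00563), −3.83 on the side of replicates 1 and 2 and −4.50 on the other. Hamp2 measured 2580, 1456, 1075 and 929 FPKM on control and 1482, 449, 865 and 464 on ethanol, with overlapping groups and a change of −0.95 (adjusted p = 0.870). How the authors' counting treated reads that match both copies is not given in the sources used here, so the split between them is uncertain. The other 36 iron genes kept held no call, and the median of all 37 was 0.11. The receptor gene Tfrc, which takes up transferrin iron, had 4.74 to 6.06 FPKM on control and 5.15, 8.91, 8.03 and 20.7 on ethanol (change 0.75, adjusted p = 0.50). Smad9, a SMAD of the BMP pathway, had 0.974, 0.403, 1.98 and 2.76 FPKM on control and 0.226 to 0.662 on ethanol (change −0.76, adjusted p = 0.506), and Cebpa, a liver factor that also acts on Hamp, changed by −0.61 (adjusted p = 0.621).

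Genes of transport, nucleoside breakdown and steroid handling were among the largest falls. Slco1a1, an uptake transporter for organic anions and bile acids, measured 18.7, 24.9, 37.0 and 131 FPKM on control and 3.13, 0.801, 2.59 and 1.75 on ethanol. It fell by 3.77 on the log2 scale (SE 0.714, adjusted p = 0.0309), with changes of −3.05 for replicates 1 and 2 and −4.49 for replicates 3 and 4. Control replicate 4 stood highest, and without it the Slco1a1 log2 change was −3.20 (adjusted p = 0.10). Upp2, a uridine phosphorylase, had 231, 422, 188 and 218 FPKM on control and 47.7, 9.80, 44.4 and 37.9 on ethanol, with ethanol replicate 2 the lowest, and changed by −3.02 (SE 0.592, adjusted p = 0.0329), −3.77 for replicates 1 and 2 and −2.27 for replicates 3 and 4. Tk1, the thymidine kinase of the salvage pathway, fell beside it from 15.7 ± 6.36 to 4.49 ± 2.76 FPKM (change −1.65, adjusted p = 0.0364, with −2.18 and −1.13 in the sides). Over 16 libraries the 20 pyrimidine genes kept thus held 2 called falls and no called rise, with 3 higher and 3 lower at an unadjusted p under 0.05 and a median of 0.03. Among these, Ctps, which makes CTP, and the deaminase Cda had groups apart in the upward direction, with changes of 0.97 (adjusted p = 0.185) and 1.01 (adjusted p = 0.241). Cda was called higher in the fit of the 8 LKO libraries (limma adjusted p = 0.0391).

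Hsd3b2 and Hsd3b3 encode hydroxysteroid dehydrogenases of the same cluster, and their reads can be shared. Hsd3b2 measured 5.67, 10, 8.53 and 12.9 FPKM on control and 1.04, 0.321, 0.615 and 2.44 on ethanol (change −2.34, SE 0.381, adjusted p = 0.0127). Hsd3b3 measured 95.0, 116, 68.0 and 104 FPKM on control and 26.5, 12.5, 13.7 and 33.6 on ethanol (change −2.19, SE 0.463, adjusted p = 0.0484). In both the highest ethanol library was replicate 4 and the groups lay apart. Fabp5, a carrier of fatty acids, had 114, 92.8, 28.3 and 45.9 FPKM on control, with replicates 1 and 2 the higher ones, and 12.3, 5.07, 10.5 and 6.45 on ethanol. Its change of −2.77 (SE 0.538, adjusted p = 0.0323) was −3.54 for replicates 1 and 2 and −2.0 for replicates 3 and 4.

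Ppp1r3g, a glycogen-targeting subunit of a protein phosphatase, had the lowest adjusted p of the falls in the fit of the 8 LKO libraries. Control livers had 4.17, 4.84, 5.03 and 4.48 FPKM and ethanol livers 0.494, 0.181, 0.208 and 0.137, an 18.2-fold lower mean. The change was −2.17 (SE 0.389, adjusted p = 0.0211 over 16 libraries and 7.71e-05 over the 8). Ethanol libraries of both genotypes lay under 1 FPKM except WT ethanol replicate 3 (5.37). Ppp1r3g thus passed the filter through the control diet, where it was high, and its p-values are descriptions. Bmf, a pro-apoptotic member of the BCL2 family, had 3.05, 7.56, 4.83 and 5.21 FPKM on control and 0.744, 0.562, 0.422 and 0.496 on ethanol (change −1.94, SE 0.267, adjusted p = 0.00505). Nudt7, a peroxisomal enzyme that degrades coenzyme A, went from 57.9, 53.2, 33.3 and 106 to 19.5, 10.4, 11.3 and 15.7 FPKM (change −1.98, adjusted p = 0.0296). The complement gene C9 had 67.1, 78.3, 64.0 and 141 FPKM on control and 28.4, 21, 14.9 and 21.6 on ethanol (change −1.94, adjusted p = 0.0389). For both Nudt7 and C9 control replicate 4 was the highest library and no ethanol library reached the control range. Kcnk5, a potassium leak channel, had 21.8, 25.5, 14.4 and 27.5 FPKM on control and 4.26, 3.41, 3.63 and 11 on ethanol (change −1.92, adjusted p = 0.0199).

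Of the other named falls, Nat8f1, Ppm1k, Arhgef37, Nxpe2, Paox, Capn3, Lsm6 and Abtb1 changed by −0.94 (Abtb1) to −1.87 (Nat8f1), with adjusted p between 0.0186 and 0.0497 and groups apart. Ppm1k encodes the mitochondrial phosphatase that activates branched-chain keto acid breakdown, and Paox a polyamine oxidase, whose change was −1.94 for replicates 1 and 2 and −0.88 for replicates 3 and 4.

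The alcohol dehydrogenase Adh4, which also oxidizes retinol, was the only one of 14 kept genes of ethanol and acetaldehyde metabolism to be called. It measured 61.8, 68.0, 60.9 and 89.2 FPKM on control and 20.4, 13.1, 13.6 and 23.0 on ethanol, 4.0-fold lower in the mean. The change of −1.96 (SE 0.288, adjusted p = 0.00563) was −1.92 and −2.0 within the sides. Adh1, the main hepatic alcohol dehydrogenase, was far more abundant and had overlapping groups at 943 to 1387 FPKM on control and 990 to 1397 on ethanol (change −0.05, adjusted p = 1.0). Aldh2, the mitochondrial aldehyde dehydrogenase, had 303, 318, 676 and 646 FPKM on control and 219, 235, 625 and 588 on ethanol, so replicates 3 and 4 lay above replicates 1 and 2 on both diets. Its change was −0.29 (adjusted p = 0.984). The RNA of Cyp2e1 measured 2279, 3085, 4499 and 3587 FPKM on control and 1547, 803, 2178 and 3010 on ethanol (change −0.95, adjusted p = 0.413), with overlapping groups. The list as a whole had no gene higher and 2 lower at an unadjusted p under 0.05, and a median of −0.18.

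Fat-making genes lay lower on ethanol without a call over 16 libraries. Of 24 genes of de novo fat synthesis, 22 had a negative change, 6 were lower and none higher at an unadjusted p under 0.05, and the median was −1.02, the lowest of the pathway lists with at least 10 genes. Srebf1, which encodes the transcription factor that drives these enzymes, had 67.4, 75.4, 73.3 and 81.0 FPKM on control and 16.3, 11.5, 20.1 and 35.1 on ethanol. Its groups lay apart by a wide gap and the change was −1.90 (SE 0.459, adjusted p = 0.0909 over 16 libraries and 0.0122 in the fit of the 8 LKO libraries). Insig1, itself a target of the factor, had 118 to 253 FPKM on control and 20.5, 51.6, 30.4 and 149 on ethanol (change −1.83, adjusted p = 0.176). Fasn, the fatty acid synthase, had 182, 131, 242 and 340 FPKM on control and 86.5, 49.6, 248 and 122 on ethanol (change −0.97, adjusted p = 0.723). The fatty acid elongase gene Elovl3 had 5.78 to 33.0 FPKM on control and 1.62 to 5.09 on ethanol (change −1.26, adjusted p = 0.279), and the desaturase gene Fads2 changed by −1.05 (adjusted p = 0.320). Within the sides, the list's median was −0.98 and −0.69.

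Fat storage and sterol genes were mixed. Among 37 kept genes of triglyceride synthesis, droplets and fat uptake, Fabp5 was the only call, 6 were higher and 4 lower at an unadjusted p under 0.05, and the median was 0.05. Vldlr, a lipoprotein receptor, rose in the fit of the 8 LKO libraries (adjusted p = 0.0159, and 0.101 over 16), from 0.358, 0.496, 0.346 and 0.147 to 1.43, 2.88, 1.48 and 1.53 FPKM. Every LKO control value of Vldlr was under 1 FPKM, so in these livers it reached the level of the filter only on ethanol. Its p-values are therefore descriptions. Fabp4 had 14, 19.8, 7.17 and 7.87 FPKM on control and 40.7, 90.4, 27.6 and 20.6 on ethanol (change 1.68, adjusted p = 0.160), and Lpin1, a phosphatidate phosphatase, 52.3 to 166 and 12.9 to 65.9 (change −1.78, adjusted p = 0.165). The cholesterol list of 29 genes had Insig2 as its called rise, 6 genes lower at an unadjusted p under 0.05 and a median of −0.52, which was −1.01 for replicates 1 and 2 and 0.01 for replicates 3 and 4. Fdft1, the squalene synthase, shows this split with 54.1, 66.0, 38.6 and 48.5 FPKM on control and 14.6, 25.1, 32.0 and 48.4 on ethanol (change −0.86, adjusted p = 0.397).

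Fatty acid oxidation genes, a list of 44, had 34 negative changes but none called, and a median of −0.19. At an unadjusted p under 0.05, 3 were higher and 3 lower, near the 5.62% and 3.57% of all genes. Ppara, the nuclear receptor that governs them, had 27.2, 29.7, 49.9 and 32.5 FPKM on control and 14.3, 9.25, 8.31 and 33.2 on ethanol, so replicate 4 alone reached the control range (change −1.22, adjusted p = 0.366). Cpt1a, which admits fatty acids to mitochondria, had 77.2, 80.2, 154 and 113 FPKM on control and 35, 43.8, 47.7 and 85.2 on ethanol (change −1.01, adjusted p = 0.687). In bile acid synthesis, Cyp7a1, the rate-limiting enzyme, had 51.9 to 67.7 FPKM on control and 18.3, 7.70, 8.51 and 107 on ethanol. Ethanol replicate 4 was the highest of all 8 libraries, the other ethanol libraries the lowest, and the change was −1.61 (adjusted p = 0.445). Without that library the Cyp7a1 log2 change was −2.41 and passed (adjusted p = 0.0393). Nr0b2, a repressor in the same circuit, lay lower in every ethanol library (19.6 to 29.1 FPKM on control, 4.0, 10.5, 6.45 and 17.5 on ethanol, change −1.37, adjusted p = 0.268). None of the 23 genes of that list passed over 16 libraries, 5 were lower at an unadjusted p under 0.05, and the median was −0.18.

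The integrated stress response is the program by which the factor ATF4 raises amino acid synthesis, stress-factor and hormone genes when translation is curbed, and Fgf21 is one of its targets as well as one of PPARα. Its targets carry the amino acid response element TGATGNAA, which was found on either strand of 8 of 29 listed windows (27.6%), in 2.79% of the kept genes with a window and in 3.97% of all RefSeq promoter windows. The list was assembled from known targets, so a high share describes the list. The element is shown in capitals for Fgf21, the transcript of the study's title, and for Atf3 and Nupr1 as examples, 60 bases each, 5′ to 3′, minus strand, GRCm38.p6 (Fgf21 chr7:45615601-45615660, Atf3 chr1:191183414-191183473, Nupr1 chr7:126625551-126625610). The letters are those of the opposite strand of the element and are the same in all 3.
Fgf21: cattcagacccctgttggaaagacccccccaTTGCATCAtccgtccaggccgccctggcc
Atf3: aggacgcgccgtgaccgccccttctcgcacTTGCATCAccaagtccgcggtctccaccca
Nupr1: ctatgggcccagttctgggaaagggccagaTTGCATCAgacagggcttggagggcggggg

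Of the 33 stress response genes kept, none was called over 16 libraries, 10 were higher and none lower at an unadjusted p under 0.05, and the median was 0.52, with 0.84 for replicates 1 and 2 and 0.07 for replicates 3 and 4. Fgf21 (ENSMUSG00000030827) measured 7.04, 6.48, 13.1 and 6.47 FPKM on control and 57.0, 113, 63.0 and 9.46 on ethanol. Ethanol replicate 4 lay within the control range and the other 3 far above it. The log2 change of 2.36 was 3.39 for replicates 1 and 2 and 1.33 for replicates 3 and 4. It had an exact permutation p of 0.0571 over 70 arrangements of 4 libraries against 4 (two-sided, 0.114 adjusted over Fgf21 and Zfp36l1), where 0.0286 is the smallest unadjusted value possible. Beside the Zfp36l1 p below, even that smallest value would not have brought the adjusted p under 0.05, so the adjusted test could not pass. Without ethanol replicate 4 the change was 3.07 with an unadjusted exact p of 0.0286, the smallest that 35 arrangements give. Zfp36l1 differed by −0.05 (exact permutation p = 0.80). Of the 10 kept genes of the FGF21 axis, which include its co-receptor Klb and receptors, none was called.

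Atf3, a stress-induced transcription factor, had 0.354, 0.922, 0.850 and 0.463 FPKM on control and 3.67, 16.2, 3.79 and 2.99 on ethanol, with groups apart and replicate 2 far above the rest (change 1.94, adjusted p = 0.116, and 0.0352 in the fit of the 8 LKO libraries). In LKO livers Atf3 reached 1 FPKM, the level of the filter, only on ethanol, so these p-values are descriptions. The stress hormone Gdf15 had 1.05, 5.57, 0.985 and 2.62 FPKM on control and 21.9, 31.8, 39.0 and 3.84 on ethanol (change 2.64, adjusted p = 0.111). Nupr1 had 0.648 to 0.940 FPKM on control and 3.35, 4.39, 2.55 and 0.808 on ethanol (change 0.99, adjusted p = 0.165). In Gdf15 and Nupr1, as in Fgf21, ethanol replicate 4 stayed in the control range. Chosen after their values were seen, Asns, Chac1 and Pck2 also carry the element and were high in ethanol replicate 2 only, at 21.8, 26.8 and 7.21 FPKM. Their other ethanol libraries, at 0.197 to 5.63 FPKM, lay within or below each gene's own control range.

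**Figure D3:**
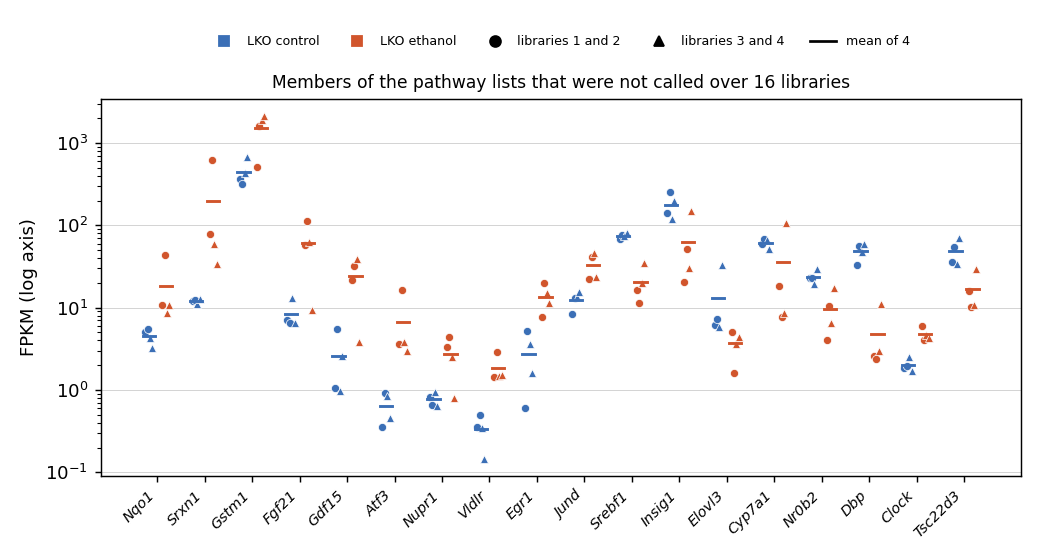
FPKM (log axis) in each LKO control (blue) and LKO ethanol (orange) library for 18 genes of the pathway lists that were not called over 16 libraries; circles are replicates 1 and 2, triangles replicates 3 and 4, and bars the mean of 4. Srebf1 lies at 67.4 to 81.0 FPKM on control and 11.5 to 35.1 on ethanol, while ethanol replicate 4 of Fgf21 (9.46) and Gdf15 (3.84) sits among the control libraries.

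Immediate early genes, which switch on within minutes of a stimulus, had 8 of 27 members higher and none lower at an unadjusted p under 0.05, none called over 16 libraries and a median of 0.58. Egr1 had 0.598, 5.15, 3.67 and 1.62 FPKM on control and 7.77, 19.8, 15 and 11.5 on ethanol (change 2.06, adjusted p = 0.102, and 0.0289 in the fit of the 8 LKO libraries). Jund had 8.43 to 15.3 FPKM on control and 22.6 to 45.9 on ethanol (change 1.30, adjusted p = 0.101 and 0.0368). In Ier3 and Klf6 the groups lay apart as well, with changes of 1.39 and 1.22 (adjusted p = 0.245 and 0.261), and ethanol replicate 2 was the highest at 17.2 and 14.6 FPKM. Cdkn1a was the called member of the 19 p53 and growth-arrest genes, whose median was 0.20. Among them Gadd45g, a stress gene, was lower in every ethanol library (18.0 to 29.2 FPKM on control, 6.6 to 14.8 on ethanol, change −1.04, adjusted p = 0.18).

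Clock genes held mostly lower values on ethanol. Usp2, a deubiquitinase whose RNA cycles with the clock, was the called one of 23, at 8.43, 13.3, 18.8 and 24.7 FPKM on control and 0.893, 0.919, 1.67 and 9.47 on ethanol. Ethanol replicate 4 lay within the control range, so this was the one called gene with overlapping groups (change −2.35, SE 0.496, adjusted p = 0.0484). Dbp, a clock output factor, had 33.0, 56.8, 47.9 and 58.6 FPKM on control and 2.61, 2.41, 3.01 and 11 on ethanol. Its change of −3.31 was larger than that of most called genes, with an adjusted p of 0.0992 over 16 libraries and 0.00532 in the fit of the 8 LKO libraries. In that fit 5 clock genes fell and 1 rose: Dbp, Usp2, Tsc22d3 (−1.55, adjusted p = 0.0462), Ciart (−1.45, adjusted p = 0.0172) and Tef (−1.06, adjusted p = 0.0381) were lower, and Clock, a positive limb factor, was higher. Clock had 1.87, 1.97, 2.52 and 1.71 FPKM on control and 5.93, 4.10, 4.72 and 4.31 on ethanol (change 0.93, adjusted p = 0.0162 in that fit and 0.173 over 16 libraries). Ciart and Tef were named after their values were seen. Over 16 libraries the list had 1 gene higher and 6 lower at an unadjusted p under 0.05 and a median of −0.46. The time of day of collection was not given in the sources used here, so a difference in it between the diets cannot be told apart from the diet.

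Genes set by growth hormone and sex in liver held more falls than rises. At an unadjusted p under 0.05, 3 of 47 were higher and 11 lower (5.62% and 3.57% of all genes). The list held 2 called falls (Nudt7 and Slco1a1) and had a median of −0.24. Control replicate 4 stood apart in male-biased members: Mup21, a urinary protein, had 8.05, 6.14, 5.10 and 56.5 FPKM on control and 0.855 to 2.55 on ethanol (change −2.42, adjusted p = 0.0939). Slco1a1 (131 FPKM) and Elovl3 (33.0 FPKM) were highest in that library too. Prom1, a membrane protein of progenitor cells and biliary epithelium, lay higher on ethanol, at 0.223, 0.533, 0.341 and 0.0670 FPKM on control and 2.57, 4.83, 1.51 and 2.11 on ethanol (change 1.48, adjusted p = 0.0650, and 0.0157 in the fit of the 8 LKO libraries). In LKO livers Prom1 reached 1 FPKM, the level of the filter, only on ethanol, so these p-values are descriptions. Xist did not separate the diets, at 17.4, 20.1, 39.3 and 25.0 FPKM on control and 27.6, 13.7, 24.8 and 49.4 on ethanol (change 0.11, adjusted p = 1.0).

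Retinoid and one-carbon genes held changes in both directions. Of 22 retinoid genes, Bco1 was the called one. Dhrs3, which reduces retinal, lay at 37.8, 49.4, 42.3 and 54.5 FPKM on control and 19.2, 11.2, 17.0 and 31.2 on ethanol (change −1.26, adjusted p = 0.116, and 0.0420 in the fit of the 8 LKO libraries). Cyp26a1, which degrades retinoic acid, had 5.23, 11.3, 4.24 and 9.66 FPKM on control and 19.8, 29.2, 29.8 and 19.4 on ethanol (change 1.63, adjusted p = 0.222 and 0.0195). Stra6l, a retinol receptor, changed by 1.04 (adjusted p = 0.245 and 0.0137). In the methionine cycle Bhmt, which remethylates homocysteine with betaine, had 382, 170, 212 and 304 FPKM on control and 626, 721, 1014 and 1086 on ethanol. All 4 ethanol libraries lay above control and the change was 1.72 (adjusted p = 0.173, and 0.0157 in the fit of the 8 LKO libraries). Mat2a and Mat1a, the enzymes that make S-adenosylmethionine, changed by 0.88 and 0.76 with groups apart (adjusted p = 0.184 and 0.297). None of the 28 genes of this list was called over 16 libraries, 3 were higher and 3 lower at an unadjusted p under 0.05, and the median was −0.04. In the fit of the 8 LKO libraries 1 was called higher and 1 lower.

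The called genes included markers of blood cells, and in bulk tissue fewer cells of a type and less RNA per cell cannot be told apart. Ighm, the constant region of immunoglobulin M, fell from 4.14, 4.41, 3.0 and 2.64 to 1.47, 0.866, 0.657 and 1.08 FPKM (change −1.17, SE 0.231, adjusted p = 0.0330). It was 1 of 3 kept among 8 B and plasma cell markers in the table, and none of the 8 was at 0 in all 8 LKO libraries. Their summed level was 16.5 to 25.0 FPKM on control and 6.27 to 15.5 on ethanol. The B cell gene Cd79a, below the filter, moved the same way at 0.487 to 0.931 and 0.0651 to 0.277 FPKM. Klf1, a factor of red cell precursors, fell from 2.98, 3.09, 3.59 and 2.21 to 1.0, 0.464, 1.13 and 1.42 FPKM (change −1.0, adjusted p = 0.0309). The summed level of 7 erythroid markers was 107 to 231 FPKM on control and 158 to 261 on ethanol, with overlapping ranges.

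Kupffer cell and macrophage markers, all 14 kept, had a median change of −0.50, no call and 1 gene (Timd4) lower at an unadjusted p under 0.05. Their summed level was 217 to 777 FPKM on control and 160 to 840 on ethanol, and the highest libraries were replicates 1 and 2 on control and replicate 2 on ethanol. Of 11 neutrophil markers 3 were kept, S100a8, S100a9 and Retnlg, and each was higher at an unadjusted p under 0.05. Their summed level was 2.72 to 6.01 FPKM on control and 3.82 to 21.5 on ethanol, and S100a8 had 0.629 to 2.12 and 7.5, 10.3, 6.59 and 1.44 FPKM (change 1.41, adjusted p = 0.256). The granule genes Mpo, Elane and Ltf and the surface marker Ly6g reached at most 0.136 FPKM in any LKO library. Prtn3, a granule protease gene outside the list, went the other way, at 5.40, 6.57, 1.44 and 4.40 FPKM on control and 0.364, 0.0463, 1.91 and 0.197 on ethanol (change −1.75, adjusted p = 0.0728, and 0.0474 in the fit of the 8 LKO libraries). Of the antigen-presentation genes, Cd74 lay lower in every ethanol library (34.7 to 61.6 FPKM on control, 15.5 to 29.1 on ethanol, change −1.01, adjusted p = 0.254). Single marker genes were named here after their values were seen. The part that these cell markers have in the gene changes above was not tested.

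**Figure D4:**
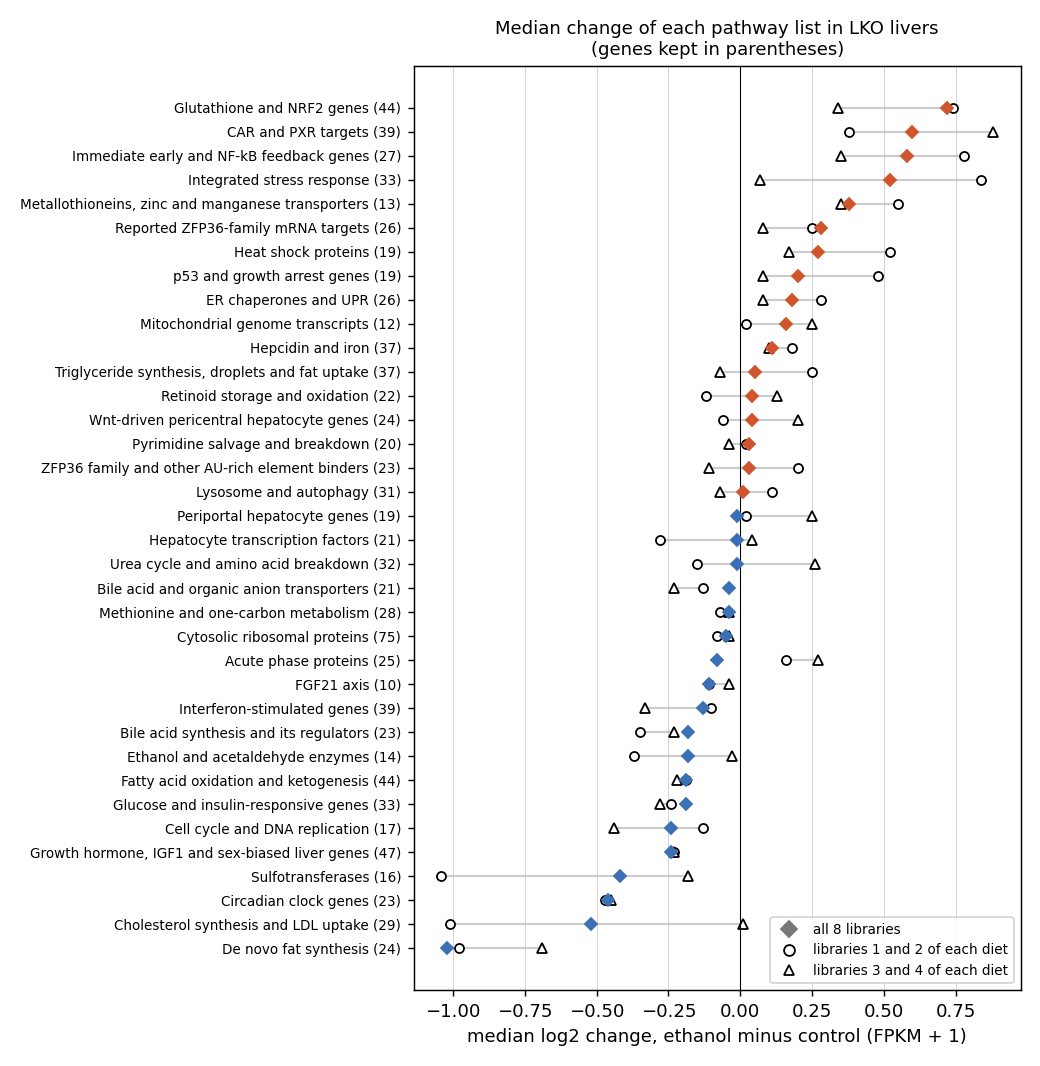
Median log2 change between diets (FPKM + 1) for each of the 36 pathway lists with at least 10 genes kept; diamonds use all 8 LKO libraries (orange above 0, blue below), circles replicates 1 and 2 of each diet and triangles replicates 3 and 4. De novo fat synthesis is lowest at −1.02, glutathione and NRF2 genes highest at 0.72, and cholesterol synthesis lies at −1.01 for replicates 1 and 2 and at 0.01 for replicates 3 and 4.

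Several programs showed little. The 75 ribosomal protein genes had a median of −0.05 and no member at an unadjusted p under 0.05 in either direction, as did the 12 transcripts of the mitochondrial genome (0.16) and the 23 genes of the ZFP36 family and other AU-rich element binders (0.03). Within the last list, Zfp36 had 20.7, 69.2, 50.9 and 60.8 FPKM on control and 12.8, 22.9, 22.6 and 30.1 on ethanol (change −1.08, adjusted p = 0.707). Zfp36l2 changed by −0.69 (adjusted p = 0.769). The 39 interferon-stimulated genes had none higher and 1 lower at an unadjusted p under 0.05 and a median of −0.13. Of 26 reported ZFP36-family target transcripts kept, Cdkn1a was the called one, 4 were higher and 2 lower at an unadjusted p under 0.05, and the median was 0.28. Medians of the lists are descriptions beside the 0.06 of all genes, and no list was tested.

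Set beside the WT response to the same diet, all 48 called genes had the same sign in WT, and 31 of them were also called there. No gene of the 11298 had a called difference between the responses (interaction, LKO minus WT, lowest adjusted p 0.812). At an unadjusted p under 0.05 there were 362 such genes (3.20%), 9 of them among the 48. The largest differences among called genes were those of Hamp and Slc34a2. Hamp changed by −4.16 in LKO and by −0.89 in WT (difference −3.28, adjusted p = 0.927), and Slc34a2 by 3.70 and 0.56 (difference 3.14, adjusted p = 0.927). For Bmf, Fabp5 and Ppp1r3g the differences were −1.63, −1.68 and −1.36, each with an adjusted p of 0.927. Cyp2b10 rose by 6.75 in LKO and 7.15 in WT (difference −0.40, adjusted p = 0.928), and Gstm3 by 4.04 and 4.72. Without WT ethanol replicate 2, 0 genes were again called (limma) and 499 (4.42%) had an unadjusted p under 0.05. These tests do not show that the responses are alike.

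**Figure D5:**
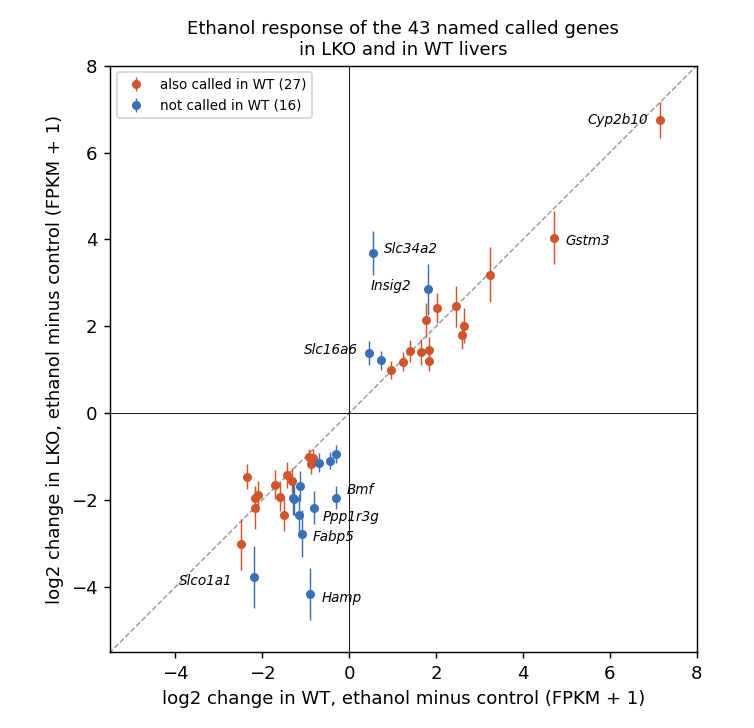
Log2 change between diets (FPKM + 1) in LKO (vertical axis, bars ± SE) against that in WT (horizontal axis) for the 43 named called genes; 27 also called in WT are orange, 16 not called there blue, and the dashed line marks equal changes. Cyp2b10 lies near the line at 7.15 and 6.75, while Hamp (−0.89 and −4.16) and Slc34a2 (0.56 and 3.70) lie away from it without a called difference.

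Fits that left out 1 LKO library at a time showed which calls held. Cyp2b10, Slc34a2, Gstt3, Bmf, Adh4 and Hamp were called in all 8 of these fits over 15 libraries. Slc34a2, Dusp8 and Samd4 were under 1 FPKM in every control library of both genotypes, and Capn3 in every ethanol library. They passed the filter on low values only through the diet where they were high, so their calls and their stability are descriptions of genes that had to differ. Dtx4 on control, and Ppp1r3g and Arhgef37 on ethanol, reached 1 FPKM in too few libraries to pass without the diet where they were high. Their calls are descriptions too. Of the 48 called genes, 3 were lost in 1 to 3 of the 8 fits and 39 in 4 or more. Among those lost, the highest adjusted p ran from 0.0550 (Gstm3, without ethanol replicate 3) to 0.223 (Usp2, Hsd3b3 and Paox, without ethanol replicate 2). The number called was 14, 10, 19 and 11 without control replicates 1 to 4, and 36, 8, 6 and 88 without ethanol replicates 1 to 4. Each of these fits has fewer LKO libraries and keeps the spread that WT ethanol replicate 2 adds. With the 8 LKO libraries alone as the base, the number called was 131, 85, 89 and 112 without control replicates 1 to 4 and 165, 191, 52 and 527 without ethanol replicates 1 to 4, a check chosen after seeing the data. All 48 genes had the same sign within both sides, which had to be so for the 47 whose groups did not overlap.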

How the data were processed

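Total liver RNA was sequenced in 16 mouse libraries, and the authors deposited 1 table of FPKM values per gene. The submitters' processing notes name the build mm10 and the tools fastp, STAR 2.6.1, HTSeq and DESeq2, with no role or order, and the annotation and strand setting are not given in the sources used here. Gene symbols and positions come from GENCODE M21 on GRCm38 (34490 of 35275 IDs matched) and promoter windows from RefSeq on GRCm38.p6. FPKM is relative to the reads counted, so a large change in a few abundant RNAs moves all others.

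From these values the log2(FPKM + 1) of the 11298 genes that reached 1 FPKM in 4 or more libraries went into limma (version 3.58.1, R 4.3.3; trend, a mean per group, all 16 libraries), and p-values were adjusted by Benjamini-Hochberg. The code was tested on simulated data. Whole reads were worked out from the FPKM steps (100% of values whole in every library) and gave library totals and a voom fit as an alternative. Called means an adjusted p under 0.05. The text names every called gene that is not a predicted gene, non-coding RNA or pseudogene, up to 4 members of each list described by smallest unadjusted p, and genes a list is named for. Some items that this rule selects are not reported here. The members and lists were chosen with earlier results of these data known, so no list is independent evidence. Fgf21 and Zfp36l1 were also compared by an exact permutation test over libraries.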

Additional observations from a re-analysis of the deposited data

Results flagged for a closer look

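In 14 of the 320 groups of 4 LKO libraries examined (160 genes, both diets), 1 library lay far from the other 3 by Dixon's test, where chance gives about 5% of groups. On the control diet, replicate 1 was high for Gsta2 at 18.4 FPKM (the others 7.35 to 8.46) and low for Prodh2, a hydroxyproline dehydrogenase, at 107 (136 to 142). Control replicate 2 was low for Bcam at 0.907 (1.27 to 1.30) and high for Abtb1 at 18.1 (15.8 to 16). Control replicate 3 was high for Fgf21 at 13.1 (6.47 to 7.04) and for the Wnt-pathway factor Tcf7 at 3.01 (1.34 to 1.44), and control replicate 4 for Elovl3 at 33.0 (5.78 to 7.26).

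On ethanol, replicate 2 was low for Upp2 at 9.80 FPKM (37.9 to 47.7) and high for Vldlr at 2.88 (1.43 to 1.53) and Atf3 at 16.2 (2.99 to 3.79). Replicate 3 was high for the ligand gene Wnt9b at 1.22 (0.465 to 0.537). Ethanol replicate 4 lay toward the control values for Insig2 at 101 (276 to 320) and Dbp at 11 (2.41 to 3.01), and it was high for Pck1, the gluconeogenic carboxykinase, at 860 (219 to 274).

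The manganese exporter gene Slc30a10 moved in opposite directions by genotype, with no overlap between diets in either. LKO livers had 5.81, 4.25, 6.06 and 5.63 FPKM on control and 14.5, 6.30, 12.7 and 9.19 on ethanol, and WT livers 3.50, 6.46, 7.82 and 4.87 on control and 3.23, 1.58, 1.83 and 1.48 on ethanol. The gap in WT was narrow, with 3.50 FPKM in the lowest control library and 3.23 in the highest ethanol library. The difference between the responses was 1.94 on the log2 scale, which did not pass after adjustment over all genes (limma interaction, adjusted p = 0.812). Slc30a10 had the smallest unadjusted interaction p of all genes (1.02e-04), so these values describe the top of a ranking.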

How the results depend on the processing

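The number of genes called shifted with the libraries in the fit, the model and the scaling. Against 48 over 16 libraries, it was 248 with the 8 LKO libraries only, 409 without WT ethanol replicate 2, 95 with a term for the 2 sides, 1206 with that term and without WT ethanol replicate 2, 794 with that term in the 8 LKO libraries and 1117 with array weights, and each of these included all 48. Upper quartile scaling gave 103, quantile normalization 105, median of ratios scaling 122 and equal sums scaling 25, with 42, 41, 42 and 25 of the 48 among them. Without a filter on low values, where 24377 genes were tested, 18 were called, 14 of them among the 48. Pseudocounts of 0.1 and 0.5, the stricter filter, no trend, a robust fit and voom on whole reads gave 34 to 49 calls. Leaving out 1 LKO library gave 6 to 88 calls and leaving out 1 WT library 23 to 409. Chosen after seeing the data, leaving out 1 library from the 8 LKO libraries gave 52 to 527 calls (131, 85, 89 and 112 without control replicates 1 to 4, 165, 191, 52 and 527 without ethanol replicates 1 to 4), and the 4 scalings in those 8 libraries gave 272, 256, 263 and 210 in the order above. The cause of these shifts was not tested.

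Of 1881 values of the called genes named under these alternatives, 476 lost the call and 0 changed direction. Of 5130 values of other named genes, 489 gained a call and 22 changed direction, all in 4 genes with changes near 0. Zfp36l1 (−0.05) changed direction at 0.00 to 0.09 when control replicates 3 or 4 (0.01, 0.00) or ethanol replicates 1 or 2 (0.06, 0.09) were left out, over 16 or 8 libraries and in the permutation test, and at 0.08 with array weights, and reached −0.18 without ethanol replicate 4. Adh1 (−0.05) lay at 0.03 with quantile normalization (0.04 in the 8 LKO libraries) and at 0.02 to 0.03 without control replicates 1 or 2 or ethanol replicate 3, and at −0.16 without control replicate 3. Aldh2 lay at 0.01 with array weights, and Xist (0.11) at −0.05 without control replicate 1 and −0.19 without ethanol replicate 4, and at 0.40 without ethanol replicate 2. The change of Fgf21 ranged from 1.92 to 3.07 when 1 library was left out. Its unadjusted exact permutation p was under 0.05 only at 3.07, without ethanol replicate 4. Of 1584 list medians, 29 moved by more than the spread between replicates. No paired analysis was possible because the diets share no number in the labels, whose titles give each library a number of its own with no stated meaning. With 4 libraries a group, changes in weakly expressed genes that rest on few reads were not resolved.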

Other observations

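Some listed genes outside the comparisons above also had ethanol libraries away from control without a call over 16 libraries. Lcn2, an iron-scavenging acute phase protein, had 27.0, 25.1, 16.5 and 17.5 FPKM on control and 88.8, 221, 268 and 30.5 on ethanol, above control in all 4 ethanol libraries (change 2.37, limma adjusted p = 0.176). The metallothionein Mt1, which binds zinc, had 744, 1516, 1078 and 676 FPKM on control and 3108, 3701, 6684 and 745 on ethanol, where replicate 4 stayed in the control range (change 1.53, adjusted p = 0.442). The 13 kept genes of metallothioneins and of zinc and manganese transport had 3 higher and none lower at an unadjusted p under 0.05 and a median of 0.38. Of 19 heat shock genes, 17 had a positive change, 4 were higher at an unadjusted p under 0.05, none was called and the median was 0.27.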
